A study of Mus musculus with 14 samples.

Results

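The leptin receptor gene Lepr and its 7 annotated transcripts were followed through the caudal intervertebral discs of 14 mice. The gene was found by its symbol among the 55487 genes counted, and its transcripts, Lepr-201 to Lepr-207, were found by the same symbol among 109383 transcripts. The rule uses the symbol and no measured value. Discs of 3 db/db males, homozygous for the Lepr db mutation, were compared with discs of 3 heterozygous db/+ littermates, both 3 months old and untreated. Discs of 4 STZ-HFD males were compared with discs of 4 Con+Veh males. STZ-HFD mice were C57BL/6J mice on a high-fat diet that received 1 dose of streptozotocin (STZ, a toxin of pancreatic β-cells) at 100 mg/kg after 4 to 6 weeks and were killed 12 weeks later. The fat content of that diet is 80% of calories in the sample labels and 60% in the study's methods. Con+Veh mice, labelled wild type, were C57BL/6J mice on standard chow and were injected with the vehicle. The study's methods give this cohort an age of 12 weeks without saying at which point. With 4 to 6 weeks before the injection and 12 weeks after it, these mice were older than that when discs were taken. Cohort, age and Lepr genotype cannot be told apart between the 2 models. The db allele is carried by every cell of the db mice, and the db/+ controls carry 1 copy of it. Each library holds RNA of 5 discs pooled from 1 mouse, so cells of disc and of attached tissue were read together.

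Leptin is a hormone made mainly by fat cells, and its receptor belongs to the gp130 family of cytokine receptors. Bound receptor activates the kinase JAK2, which leads to activation of STAT3 and to transcription of the feedback inhibitor Socs3. The long receptor isoform (Ob-Rb) carries the complete signalling tail, whereas the short isoforms share the leptin-binding part outside the cell and end soon after the membrane. In db mice a point mutation in the last exon of a short form creates a splice donor. Part of that exon is thereby inserted into the long-form mRNA, which shortens its reading frame.

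In the GENCODE M21 annotation of GRCm38, Lepr (ENSMUSG00000057722) lies on the forward strand of chromosome 4 from 101717404 to 101815352, a span of 97.9 kb, and 0 other genes overlap it. Of the 7 transcripts, 3 code for a complete receptor. Lepr-201 (ENSMUST00000037552) has 19 exons and 1162 codons and is the long isoform. Lepr-203 (ENSMUST00000106921) has 19 exons and 894 codons, and Lepr-202 (ENSMUST00000102777) has 18 exons and 892 codons. Both of these are short isoforms. Lepr-205 holds an incomplete coding sequence, and Lepr-204, Lepr-206 and Lepr-207 are annotated as processed transcripts with none. The 3 receptor-coding transcripts share 3222 bases and part only at their 3′ ends, so reads from the shared bases cannot tell them apart. The last exon of Lepr-201 is 905 bases long, of which 819 code for protein. That of Lepr-203 is 2320 bases long, of which 15 code for protein and the rest is 3′ untranslated region. Lepr-202 reads on past the end of the exon that the other two splice at, and 188 of its bases lie in neither of the other two.

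**Figure D1:**
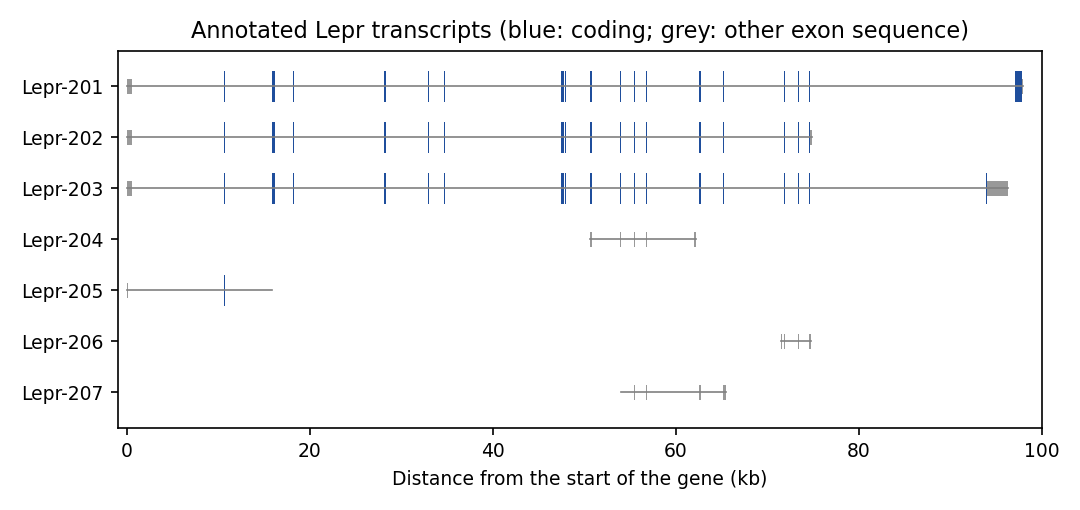
Exons of the 7 annotated Lepr transcripts by distance from the start of the gene, in kb, with coding sequence in blue and other exon sequence in grey. Lepr-201, Lepr-202 and Lepr-203 share their exons up to the exon where they part, and only Lepr-201 and Lepr-203 have a separate last exon.

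The coding ends at which the 3 receptor-coding transcripts part are shown because they separate the long from the short isoforms. The 30 shared bases in lower case lie at chr4:101792041-101792070, and the bases in capitals are those each transcript has for itself, read 5′ to 3′ on the forward strand of GRCm38. The capitals of Lepr-201 lie at chr4:101814448-101814537 and are the first 90 of its 822 bases after the shared part, stop codon included. Those of Lepr-202 lie at chr4:101792071-101792082 and those of Lepr-203 at chr4:101811348-101811365, and both run to the stop codon.
Lepr-201: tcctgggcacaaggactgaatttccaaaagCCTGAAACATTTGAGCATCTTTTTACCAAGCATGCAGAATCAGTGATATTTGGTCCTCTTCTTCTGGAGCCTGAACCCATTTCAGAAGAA
Lepr-202: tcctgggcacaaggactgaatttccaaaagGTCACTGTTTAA
Lepr-203: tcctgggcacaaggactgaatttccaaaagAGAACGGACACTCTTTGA
After the shared bases, Lepr-202 adds 9 coding bases before its stop codon, Lepr-203 adds 15 and Lepr-201 adds 819.

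Libraries held 16076908 to 58943169 counts on genes, and 3 counts corresponded to 0.0509 to 0.187 CPM, the count scaled to a common library total. Between 28.1% and 60.2% of these counts fell on ribosomal RNA genes. All libraries carry 1 batch label. For 2 libraries, replicate 2 of Con+Veh and replicate 4 of STZ-HFD, the names end alike, and what the ending means is not stated. Defining markers of disc cartilage (Acan, Col2a1, Col9a1, Comp, Matn3 and Hapln1) were detected, with summed levels of 593 to 22900 CPM. Markers of skeletal muscle reached summed levels of 2000 to 15000 CPM, so RNA of muscle was read in every library.

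Lepr was detected in all 14 libraries, was highest in Con+Veh discs and fell in STZ-HFD discs, where each library lay below each Con+Veh library. In Con+Veh it stood at 22.9, 20.2, 26.0 and 22.0 CPM (22.8 ± 2.44, SD, n = 4), after scaling of library sizes with edgeR's TMM method. In STZ-HFD it stood at 9.42, 9.25, 10.5 and 13.1 CPM (10.6 ± 1.76, SD, n = 4). The highest STZ-HFD library, replicate 4, was 1 of the 2 whose names share an ending. The log2 fold change was -1.11 (standard error, SE, 0.21, 95% interval -1.56 to -0.67), a fold of 2.16, with a limma adjusted p = 0.0107 after Benjamini-Hochberg (BH) adjustment over 16915 genes. Calls needed a BH-adjusted p below 0.05 together with a log2 fold change of 1 or more in size. By this rule 1.31% of all genes tested were called lower in STZ-HFD, 2.77% were lower without overlap between the groups and 4.74% did not overlap in either direction. Among the 221 genes called lower, Lepr ranked 59 by p-value. In bulk tissue, fewer cells that express a gene and less of its RNA per cell cannot be told apart.

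The log2 fold change was negative under all 11 other settings and in all 14 fits that left out 1 library, while the call depended on the test. The adjusted p was 0.071 with edgeR's quasi-likelihood test, 0.0791 with voom without library weights and 0.00343 with DESeq2, at log2 fold changes of -1.11, -1.11 and -1.09. The call was lost when Con+Veh replicate 3, Con+Veh replicate 4 or STZ-HFD replicate 3 was left out, with limma BH-adjusted p of 0.235, 0.0781 and 0.125 and log2 fold changes of -0.97, -1.14 and -1.09. Con+Veh replicate 3 held the highest Lepr level and also the largest library weight, 3.05 in a range from 0.275. Without both libraries whose names share an ending, the log2 fold change was -1.27 with a limma BH-adjusted p = 0.0322.

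In db/db discs the total Lepr level overlapped with that of db/+. The db/+ libraries stood at 9.68, 6.50 and 6.08 CPM (7.42 ± 1.97, SD, n = 3) and the db/db libraries at 4.86, 7.67 and 5.89 CPM (6.14 ± 1.42, SD, n = 3). Of the db/db libraries, 2 lay below all db/+ libraries and the other lay above 2 of them. The log2 fold change was -0.25 (SE 0.25, 95% interval -0.77 to 0.27, limma BH-adjusted p = 0.595). Of all genes tested, 0.432% were called lower in db/db. The gene count sums over long and short isoforms and mutant and normal alleles, so it is no check of the db/db label. The 2 log2 fold changes differed by -0.87 (SE 0.32, limma BH-adjusted p = 0.173), and 1.77% of genes passed this test of the difference.

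**Figure D2:**
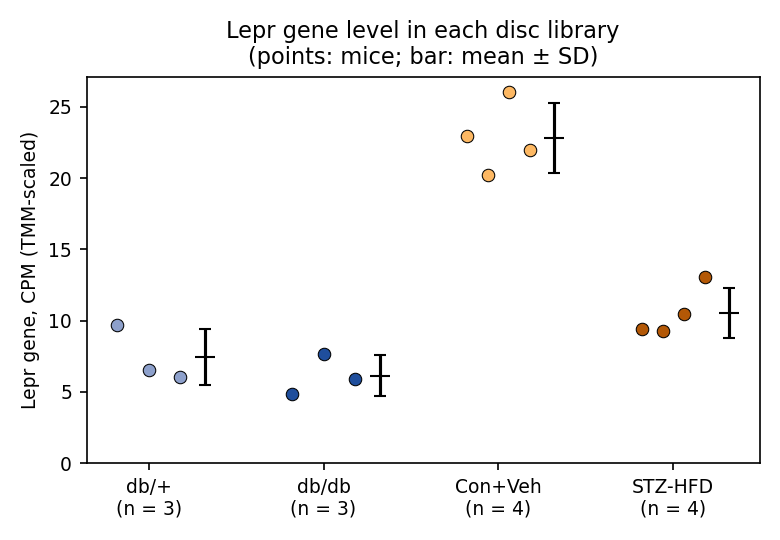
Lepr gene level in CPM (TMM-scaled) for each library by group, with 1 point per mouse and the mean ± SD beside the points. The 4 Con+Veh libraries, from 20.2 to 26.0 CPM, lie above the other 10, and the db/db and db/+ libraries overlap.

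The order of the mean levels was Con+Veh, STZ-HFD, db/+ and db/db. All 6 pairs of groups were compared on log2 CPM by two-sided exact permutation tests, with Benjamini-Hochberg adjustment over the 6 pairs. Con+Veh lay above each other group without overlap, and STZ-HFD lay above db/db by 0.79 on the log2 scale, also without overlap. In each of these pairs the exact permutation p was 0.0286, the smallest these group sizes allow, and the adjusted p was 0.0429. For pairs across cohorts, the share of all genes without overlap was not counted. STZ-HFD and db/+ differed by 0.52 on the log2 scale and overlapped (exact permutation p = 0.0857, adjusted p = 0.103). The db/db and db/+ groups were not told apart (exact permutation p = 0.400, where 3 libraries against 3 cannot go below 0.1). Pairs across cohorts also differ in Lepr genotype, cohort, age and treatment, and give the order only. Levels of tissue marker RNA and of ribosomal RNA differed with the cohort too. Disc cartilage markers summed to 5220 to 22900 CPM in the db groups and 593 to 3200 in the other groups, and ribosomal RNA took 28.1% to 39.7% of counts in the db groups and 44.4% to 60.2% in the others, both without overlap. Their part in the order was not tested.

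At the transcript level, the short isoform Lepr-203 held most of the estimated Lepr counts in 13 of the 14 libraries, although per kilobase of transcript it held less in most of them. Salmon's estimated counts, which share out reads between transcripts and need not be whole, summed over Lepr to 41 to 251 per library. These sums were 17.9% to 32.3% of the gene count of Lepr, and the median over 7398 well-counted genes was 19.5% to 30.3%, so the transcript table holds fewer reads for most genes alike. Of the 7 transcripts, 5 had an estimated count in any library and 4 passed the filter of 0.5 CPM in at least 3 libraries. Lepr-205 and Lepr-206 were listed at 0 in every library. Lepr-204 reached at most 3.34 estimated counts and was not tested.

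The share of Lepr-203 in the summed Lepr counts was 100%, 94.5%, 84.4% and 98.0% in Con+Veh and 41.6%, 94.5%, 56.7% and 95.5% in STZ-HFD. It was 98.4%, 77.1% and 75.1% in db/+ and 72.3%, 61.5% and 69.0% in db/db. By counts it was below another transcript only in STZ-HFD replicate 1, which had the fewest counts, where Lepr-202 was above it. Because the last exon of Lepr-203 is long, its share of counts per kilobase of transcript was lower in 13 of the 14 libraries and equal in the other, at means of 86.5% in Con+Veh, 57.3% in STZ-HFD, 65.6% in db/+ and 51.6% in db/db. Per kilobase it was below 50% in 5 libraries, at 39.8% in db/+ replicate 3, 49.5% and 39.3% in db/db replicates 2 and 3, and 30.4% and 29.7% in STZ-HFD replicates 1 and 3. On this scale Lepr-207 lay above it in db/+ replicate 3, at 54.2%, and in STZ-HFD replicate 3, at 45.0%, and Lepr-202 did in STZ-HFD replicate 1, at 69.6%.

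The level of Lepr-203 was lower in STZ-HFD than in Con+Veh without overlap, as the total was. It stood at 50.6, 36.4, 40.0 and 41.2 CPM in Con+Veh (42.0 ± 6.04, SD, n = 4) and at 8.30, 21.1, 10.3 and 26.7 CPM in STZ-HFD (16.6 ± 8.76, SD, n = 4). The STZ-HFD libraries spread over a ratio of 3.21 between the highest and the lowest, and the Con+Veh libraries over 1.39. Mean CPM differed by a fold of 2.53 (exact permutation p = 0.0286, the smallest for 4 against 4). In the fit over 40670 transcripts the log2 fold change was -1.31 (SE 0.38) and was not called, with a limma BH-adjusted p = 0.329. Lower levels without overlap were found for 1.41% of transcripts, and 0.0541% were called in either direction. DESeq2 gave an adjusted p = 0.0237 at a log2 fold change of -1.34, and edgeR's quasi-likelihood test gave an adjusted p = 0.589. On simulated data the transcript test called 0.5% of transcripts changed by 2 on the log2 scale in the STZ-HFD contrast, against 71.5% for genes, so the lack of calls says little about the isoforms.

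In db/db discs Lepr-203 was at 7.31, 8.08 and 6.91 CPM (7.43 ± 0.597, SD, n = 3), against 15.4, 10.9 and 8.96 CPM in db/+ (11.7 ± 3.27, SD, n = 3). All db/db libraries lay below all db/+ libraries, with an exact permutation p = 0.1, the smallest 3 against 3 allow. The log2 fold change was -0.57 (SE 0.44, limma BH-adjusted p = 0.673). Among all transcripts tested, 7.71% were lower in db/db without overlap and 0.642% were called in either direction.

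The estimate for the long isoform Lepr-201 made up a larger share of the Lepr transcript counts in each db/db library than in any db/+ library. In db/db this estimate cannot stand for normal long-form mRNA, because the db mutation alters that mRNA. Its estimated counts were 24.4, 44.1 and 7.52 in db/db and 0, 8.23 and 9.16 in db/+. Its share was 27.7%, 36.3% and 9.13% in db/db (24.4 ± 13.9, SD, n = 3) and 0%, 7.35% and 8.48% in db/+ (5.28 ± 4.60, SD, n = 3). Between the nearest libraries of the 2 groups, db/db replicate 3 and db/+ replicate 3, the shares were 9.13% and 8.48%, so the absence of overlap rested on a narrow gap. The means differed by 19.1 percentage points (exact permutation p = 0.1, the smallest 3 against 3 allow). In CPM the groups overlapped, at 2.80, 4.77 and 0.914 in db/db and 0, 1.04 and 1.01 in db/+ (exact permutation p = 0.300). As a share of counts per kilobase, the groups overlapped as well, at means of 26.7% in db/db and 4.82% in db/+.

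By limma, Lepr-201 had a log2 fold change of 2.30 in db/db (SE 1.16, limma BH-adjusted p = 0.463). It was 1.19 without db/+ replicate 1 and 3.31 without db/+ replicate 2, with limma BH-adjusted p of 0.727 and 0.444. Against the other Lepr transcripts of the same libraries its log2 fold change was 2.87 (BH-adjusted p = 0.509 over 34599 transcripts, limma's diffSplice). Neither test called it, and 0 Lepr transcripts changed usage in either contrast, where 0.396% of transcripts did in STZ-HFD and 1.8% in db/db. The annotated transcripts hold no form with the insertion that the db mutation causes. Salmon therefore shared out the reads of db/db, and of the mutant allele in db/+, over forms without it. The inserted bases belong to the last exon of a short form, so the split between long and short estimates may be affected, which was not tested.

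Outside the db groups the long isoform was near the limit of detection. It had 5.73 estimated counts in Con+Veh replicate 2 and 4.82 in STZ-HFD replicate 2, and was listed at 0 in the other 3 libraries of each of these groups. Its share was 0.57% in Con+Veh and 1.39% in STZ-HFD on average (exact permutation p = 1). At these counts a change of the long isoform with STZ-HFD was not detectable.

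Lepr-202, the short isoform that reads on past the shared splice donor, was above 0 in 5 libraries only. It had 16.4 estimated counts in db/+ replicate 2, 7.93 in db/db replicate 3 and 21.2 in Con+Veh replicate 3. In STZ-HFD it had 24.0 in replicate 1 and 22.8 in replicate 3, which were 58.4% and 29.6% of the Lepr counts of these libraries. Its log2 fold changes were 0.29 in STZ-HFD (SE 2.01) and -0.64 in db/db (SE 2.28), with limma BH-adjusted p of 0.989 and 0.966. The processed transcript Lepr-207 had at most 17.7 estimated counts, in db/+ replicate 3, and adjusted p of 0.972 and 0.965 in STZ-HFD and db/db (limma with Benjamini-Hochberg adjustment).

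**Figure D3:**
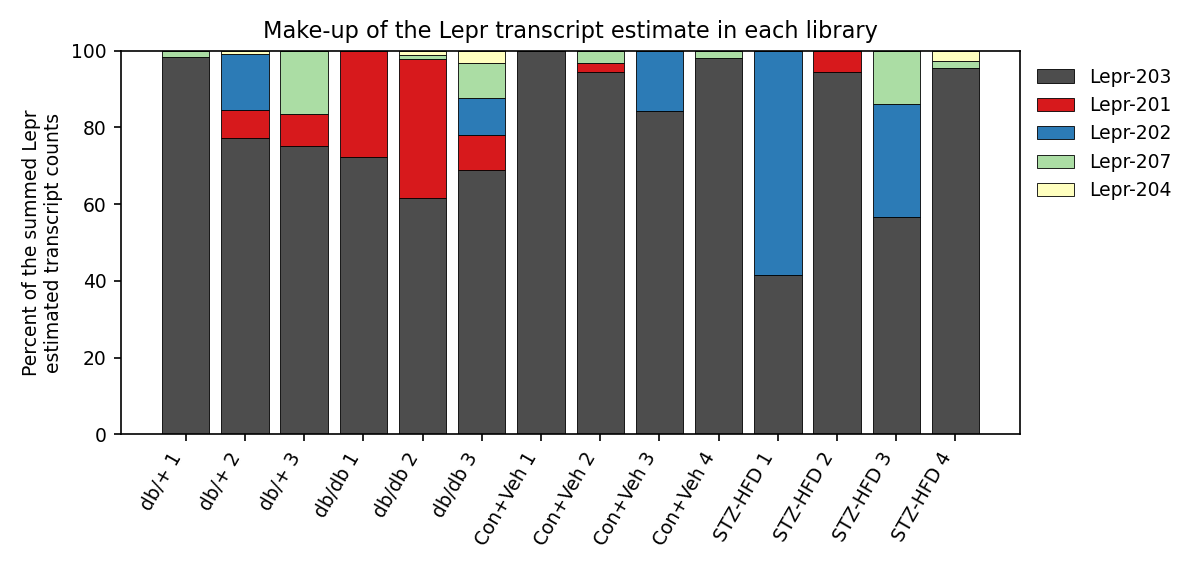
Make-up of the estimated Lepr transcript counts of each library, in percent of their sum, with 1 bar per mouse. Lepr-203 (dark grey) is the largest part in all but STZ-HFD replicate 1, and Lepr-201 (red) takes 9.13% to 36.3% in db/db and at most 8.48% elsewhere.

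**Figure D4:**
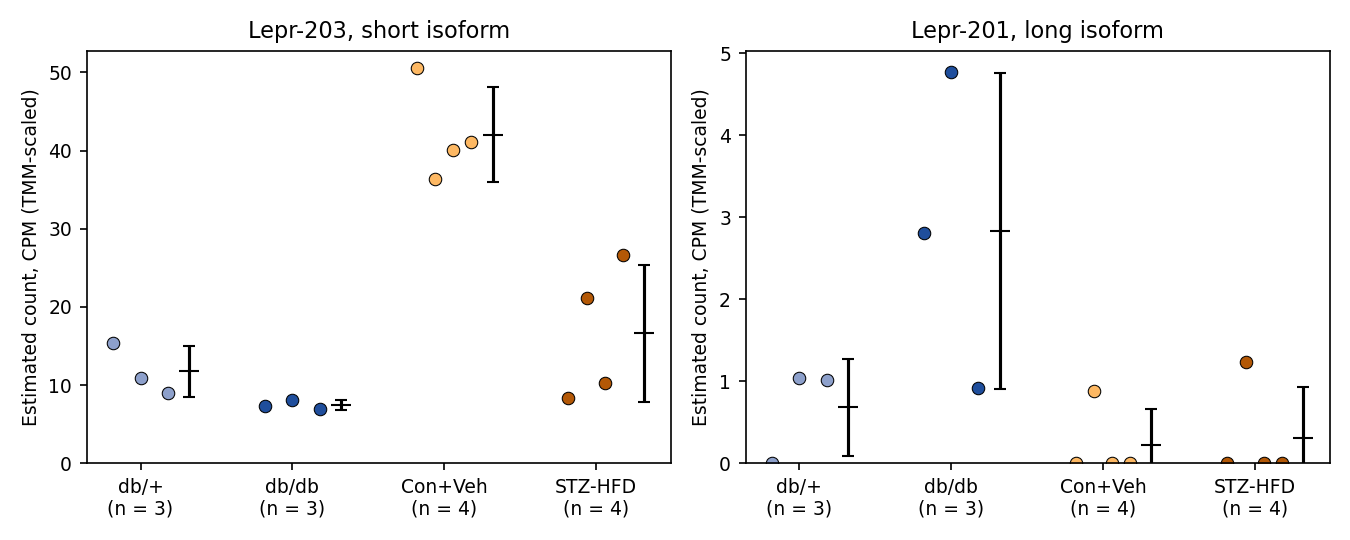
Estimated level of the short isoform Lepr-203 (left) and the long isoform Lepr-201 (right) in CPM for each library, with the mean ± SD beside the points and both axes starting at 0. The Con+Veh libraries lie highest for Lepr-203, at 36.4 to 50.6 CPM, and the 2 highest Lepr-201 levels, 2.80 and 4.77 CPM, are in db/db.

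The ligand and the signalling genes downstream were read from a list of 25 leptin pathway genes, of which 24 were tested. In STZ-HFD 0 of them were called by limma, where 2.61% of all genes were called in either direction, and 3 had an unadjusted p under 0.05, as 17.9% of all genes did. DESeq2 and edgeR's quasi-likelihood test also called 0. In db/db 1 was called, where 1.66% of all genes were, and 4 had an unadjusted p under 0.05, as 21.1% of all genes did. The median log2 fold change of the list was -0.05 in STZ-HFD and -0.08 in db/db, beside -0.04 over all genes in both.

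Leptin itself, Lep, was at 4.51 ± 2.09 CPM in STZ-HFD and 1.02 ± 0.989 in Con+Veh (SD, n = 4), and the groups overlapped. It was at 2.37 ± 0.943 CPM in db/db and 0.655 ± 0.445 in db/+ (SD, n = 3), without overlap, as were 25.8% of all genes in either direction. Its log2 fold changes were 1.95 (SE 0.68, limma BH-adjusted p = 0.130) and 2.07 (SE 0.81, limma BH-adjusted p = 0.156), and neither was called. Lep is also an adipocyte marker. The summed level of 7 adipocyte markers, Lep included, ran from 785 to 990 CPM in STZ-HFD and 375 to 912 in Con+Veh, and from 341 to 625 CPM in db/db and 196 to 411 in db/+. Of these markers 4 were called higher in db/db, where 1.23% of all genes were, and 0 in STZ-HFD, where 1.3% were, and their part in the Lep values was not tested.

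Leprot, which lies 58.0 kb before Lepr on the same strand and codes for a protein that limits the amount of receptor at the cell surface, was not called. Its log2 fold changes were -0.43 in STZ-HFD (SE 0.25, limma BH-adjusted p = 0.395) and -0.06 in db/db (SE 0.26, limma BH-adjusted p = 0.928). With gene totals from transcript counts, the value in STZ-HFD was -1.34 (limma BH-adjusted p = 0.851). The receptor's kinase gene Jak2 had log2 fold changes of 0.18 in STZ-HFD and 0.12 in db/db and limma BH-adjusted p of 0.772 and 0.830. The kinase adaptor gene Sh2b1, whose product binds JAK2 and enhances its activity, was called lower in db/db. It stood at 4.89 ± 1.02 CPM in db/db and 10.2 ± 1.43 in db/+ (SD, n = 3), without overlap, as 11.7% of all genes were in this direction. The log2 fold change was -1.09 (SE 0.24, limma BH-adjusted p = 0.0327). This call was lost when any of the 6 db libraries was left out, with log2 fold changes of -1.21 to -0.90, and with 3 other tests. They were edgeR's quasi-likelihood test (adjusted p = 0.224), DESeq2 (adjusted p = 0.0602) and voom without library weights (adjusted p = 0.147). In STZ-HFD its log2 fold change was 0.25 (SE 0.24, limma BH-adjusted p = 0.637).

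The transcription factor gene Stat3 had a log2 fold change of -0.004 in STZ-HFD and -0.48 in db/db (SEs 0.20 and 0.24, limma BH-adjusted p of 0.996 and 0.257). In db/db the groups did not overlap, at 55.5 to 69.9 CPM against 72.9 to 96.7 in db/+, as was the case for 11.7% of all genes in this direction. Its target and feedback inhibitor Socs3 had log2 fold changes of -0.61 in STZ-HFD and -0.32 in db/db (limma BH-adjusted p of 0.448 and 0.622), at 0.905 to 4.44 CPM over the 14 libraries. With library weights, the members of the list with the largest log2 fold changes after Lep in STZ-HFD were Ptpre at -0.94, coding for a phosphatase, and the kinase gene Akt1 at -0.72, with limma BH-adjusted p of 0.0893 and 0.180. Ptpre was called lower when Con+Veh replicate 2 or STZ-HFD replicate 2 was left out, with limma BH-adjusted p of 0.0421 and 0.0331, and its log2 fold change was -0.49 without STZ-HFD replicate 4. The value of Ptpre was -0.24 with voom without library weights, -0.21 with edgeR and -0.18 with DESeq2 (adjusted p of 0.851, 0.846 and 0.877), and smaller in size than those of Akt1 and Socs3, which were -0.50 to -0.41 by these tests.

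**Figure D5:**
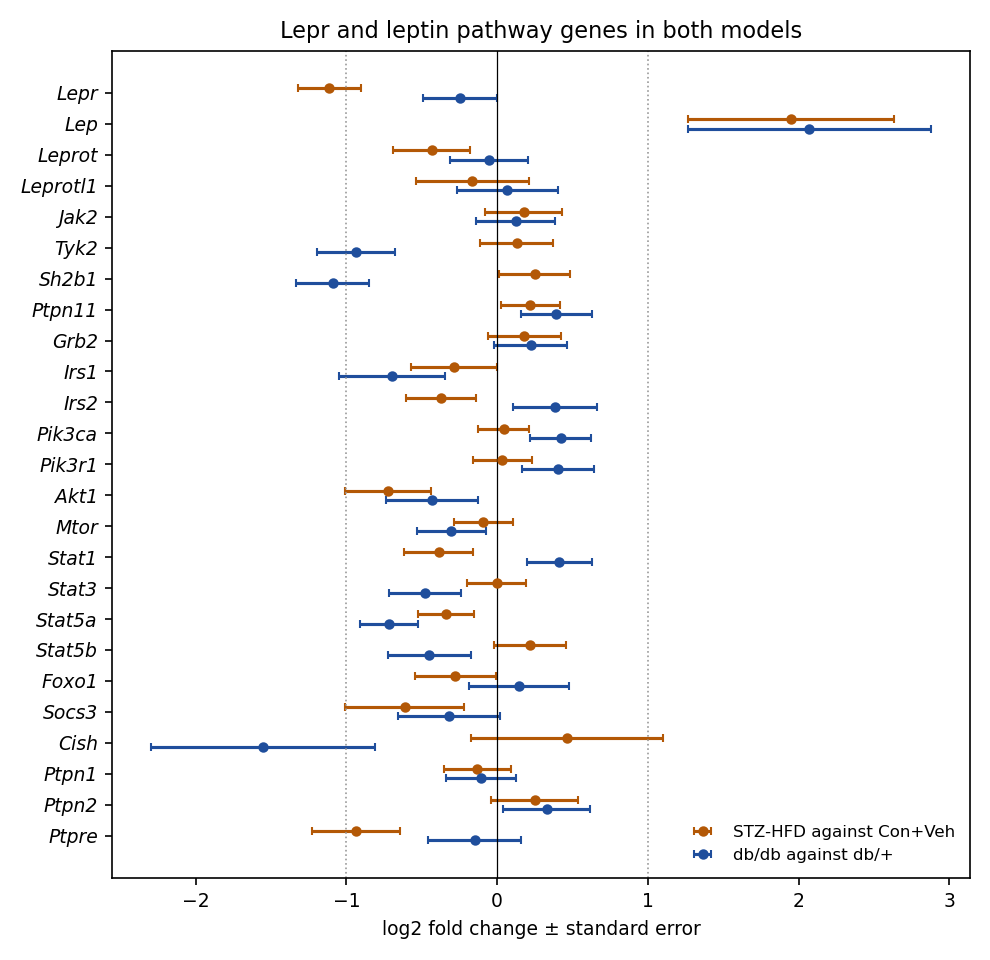
Log2 fold change ± SE of Lepr and of the 24 leptin pathway genes tested, for STZ-HFD against Con+Veh (brown) and db/db against db/+ (blue), with dotted lines at 1 and -1. Lepr in STZ-HFD (-1.11) and Sh2b1 in db/db (-1.09) are the 2 values called.

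Among the receptors of the gp130 family, Lepr changed its place with the group. Levels between genes were compared per kilobase of exon, over Lepr and 14 family members. Lepr was at 3.23 CPM per kb in Con+Veh, the fourth of 15, after the shared subunit Il6st at 18.3, the leukaemia inhibitory factor receptor Lifr at 8.63 and the interleukin-6 receptor Il6ra at 3.73. In STZ-HFD it was at 1.5 CPM per kb and ranked 8. In db/+ and db/db it was at 1.05 and 0.871 CPM per kb and ranked 9 in both. Against 16904 genes with a known length, 69.2% lay below Lepr in Con+Veh and 48.7% in STZ-HFD, and 39.0% in db/+ and 35.0% in db/db.

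Of the 14 family members 11 were tested, and 0 were called in either contrast by limma, edgeR or DESeq2. Over all genes limma called 2.61% in STZ-HFD and 1.66% in db/db. An unadjusted p under 0.05 was found for 2 members in STZ-HFD and 1 in db/db, where 17.9% and 21.1% of all genes had one. In STZ-HFD the largest log2 fold changes were 0.62 for Il12rb2 (SE 1.09), -0.54 for the oncostatin M receptor Osmr (SE 0.21) and -0.52 for Il6st (SE 0.21). Their limma BH-adjusted p were 0.817, 0.176 and 0.182. The Osmr libraries did not overlap, at 16.0 to 24.4 CPM in STZ-HFD and 25.2 to 32.6 in Con+Veh, as was the case for 2.77% of all genes in this direction. In db/db they were -2.26 for Il12rb2 (SE 1.20), 0.64 for Il11ra1 (SE 0.29) and -0.52 for Cntfr (SE 0.38), with Il12rb1 also at -0.52 (SE 0.61). Their limma BH-adjusted p were 0.290, 0.217, 0.448 and 0.665. Il12rb2 had between 0 and 54 counts in a library. Its log2 fold change in db/db was -0.45 without db/db replicate 1, -3.65 without db/db replicate 2, -1.07 with edgeR and -1.04 with DESeq2.

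The 4 protein-coding genes on each side of Lepr were read as well, to see whether Lepr moved with its surroundings. Those before it, Leprot, Dnajc6, Ak4 and Jak1, were tested and 0 were called. Those after it, B020004J07Rik, C130073F10Rik, Gm12800 and Gm12794, had at most 22 counts in a library and were not tested. In STZ-HFD the log2 fold changes were 0.97 for Dnajc6 (SE 0.80), -0.30 for Ak4 (SE 0.44) and 0.16 for Jak1 (SE 0.22). In db/db they were 1.55 for Dnajc6 (SE 0.77), 0.29 for Ak4 (SE 0.31) and 0.35 for Jak1 (SE 0.26).

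The genes whose pattern over the 14 libraries was most like that of Lepr were found by the root mean square distance between centred log2 values, with 0.5 CPM added. They were Ube2e1 at 0.36, Gm36043 at 0.36, Cwc15 at 0.38, Jchain at 0.40 and Gm33424 at 0.40, where the median gene was at 0.90 and a gene with no variation would be at 0.74. Each had its highest mean in Con+Veh, as Lepr had, which follows from choosing them by likeness to Lepr. The ubiquitin-conjugating enzyme gene Ube2e1 was at 12.3 ± 4.15 CPM in Con+Veh, 6.81 ± 1.86 in STZ-HFD, 4.48 ± 1.18 in db/+ and 4.47 ± 0.939 in db/db (SD). Jchain, which codes for the joining chain of secreted antibodies, had a log2 fold change of -1.90 in STZ-HFD with a limma BH-adjusted p = 0.0982. None of the 5 was called in either contrast. Gm36043 is annotated as antisense, and since strand was not stated for the counting its reads cannot be told from those of its partner.

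Markers of the cells that a disc sample can hold were read beside Lepr. Marrow stromal cells, which are known to express Lepr, were followed through 8 markers (Cxcl12, Kitl, Ebf1, Ebf3, Foxc1, Pdgfra, Pdgfrb and Vcam1). Their summed level was 262 to 456 CPM in STZ-HFD and 405 to 507 in Con+Veh, with 0 called and 6 of 8 at a negative log2 fold change. In db/db it was 428 to 553 CPM, above the 290 to 379 of db/+, without a call and with 1 of 8 at a negative log2 fold change. Ebf1 and Ebf3 missed the call only by the size of their log2 fold changes, 0.90 and 0.91 (limma BH-adjusted p of 0.032 and 0.0346). Of all genes, 25.8% did not overlap in this contrast in either direction. Endothelial cells were followed through 7 markers (Pecam1, Cdh5, Kdr, Tek, Tie1, Emcn and Egfl7). Their summed level was 197 to 473 CPM in STZ-HFD and 212 to 886 in Con+Veh, with 0 called. Of the 7, 3 had a negative log2 fold change, with a median of 0.074. Kdr was on average the largest part of the Con+Veh sum, at a mean of 317 CPM against 108 in STZ-HFD (limma BH-adjusted p = 0.163). The endothelial sum was 250 to 280 CPM in db/db and 160 to 222 in db/+, also without overlap, with 1 called higher, where 1.23% of all genes were.

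Levels of marker RNA of other tissues differed in the STZ-HFD contrast as well, although the muscle and leukocyte sums overlapped between the groups. The 6 disc cartilage markers summed to 593 to 1270 CPM in STZ-HFD and 1350 to 3200 in Con+Veh, without overlap, and 4 were called lower. Of all genes, 2.77% were lower without overlap and 1.31% were called lower. The 7 skeletal muscle markers summed to 6310 to 15000 CPM in STZ-HFD and 5450 to 6560 in Con+Veh, and 2 were called higher, where 1.3% of all genes were. The 5 leukocyte markers summed to 79.7 to 138 CPM in STZ-HFD and 98.8 to 212 in Con+Veh, and 1 was called lower. In db/db the muscle markers were at 2000 to 3570 CPM, against 2780 to 5550 in db/+, with 0 called. None of the markers named here was at 0 in all libraries, and their part in the Lepr values was not tested. Markers of bone, nucleus pulposus, annulus and tendon, and fibroblasts had 1, 0, 2 and 0 members called in STZ-HFD, all lower, and 0 in db/db. The 5 bone markers summed to 506 to 768 CPM in db/db and 842 to 1450 in db/+, without overlap, as 11.7% of all genes were lower. Of the 5, 4 had a negative log2 fold change, with a median of -1.06. Most of these sums came from Ibsp, at a mean of 570 CPM in db/db and 1053 in db/+ (limma BH-adjusted p = 0.268).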

How the data were processed

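RNA of 5 pooled caudal discs per mouse was amplified with a SeqPlex kit and sequenced without molecular identifiers, so the floors of 3 counts cover counting error only. The intervals of fold changes come from the limma fit and include the spread between mice. The authors aligned reads to GRCm38 with STAR and deposited gene counts made with featureCounts on Ensembl release 101, as whole numbers and not normalized. The authors also deposited estimated counts per transcript made with Salmon, which were rounded here to whole numbers before limma, edgeR and DESeq2 and left unrounded for shares and CPM. The tools are named in the submitters' processing notes. Strand was not stated. Lines that repeat an identifier (287 in the gene table and 645 in the transcript table) were used once. Of the genes, 55227 were found in GENCODE M21, which gave positions, lengths and transcript sequences.

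Groups and replicate numbers came from the sample labels. Counts were analysed with R 4.3.3, edgeR 4.0.16, limma 3.58.1 and DESeq2 1.42.0. Genes above 1 CPM and transcripts above 0.5 CPM in at least 3 libraries were kept. The test was limma's voomWithQualityWeights, named by the study, with TMM factors, a mean per group and all 14 libraries in 1 fit, and Benjamini-Hochberg adjustment over all features per contrast. diffSplice tested transcript usage. Single values were compared by two-sided exact permutation tests. The depth was 16076908 to 58943169 counts per library. On simulated data, 71.5% (STZ-HFD) and 64.5% (db/db) of 200 genes changed by 2 on the log2 scale were called among 16915, and 0.5% and 2% of 200 transcripts among 40670. Replicates of a group differed by a chi-square per degree of freedom of 57.7 to 661 over 18 pairs, so none was a copy of another's counts. The lowest value was that of Con+Veh replicates 3 and 4. Libraries amplified separately from the same RNA can differ too, so this does not show that each came from a separate mouse. The members and gene lists were chosen with earlier results of these data known. Genes were named by a rule, namely Lep, Leprot, Jak2, Stat3 and Socs3, the called members of each list or, with none called, the 3 with the largest absolute log2 fold change per contrast, and the 5 genes most like Lepr. Alternatives replaced the test (edgeR's quasi-likelihood test, DESeq2 or voom without library weights), the scaling (RLE size factors or ribosomal RNA genes removed), the low-count filters, the libraries fitted (1 model at a time), the terms (replicate number as a block), the source of gene totals (summed transcript counts), the form of the isoform share and the call (no minimum fold change), or left out each library in turn or the 2 libraries whose names share an ending. A transcript filter of 5 CPM, exact tests of Lepr-203 and Lepr-201 and RLE factors for the pairs of groups were added after seeing the data.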

Additional observations from a re-analysis of the deposited data

Results flagged for a closer look

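Single libraries of a group stood apart from the other 3 in 7 cases, by Dixon's criterion for 4 values, at 50 groups of values examined, where chance flags about 1 in 20. Among the isoforms these were libraries in which an estimate was above 0 while the other 3 of the group were listed at 0. Such groups are always flagged, and groups at 0 throughout, which are among the 50, never are. The chance rate therefore does not apply to the isoforms. Lepr-201 was at 0.880 CPM in Con+Veh replicate 2 and at 1.24 CPM in STZ-HFD replicate 2, which were 2.28% and 5.55% of the Lepr transcript counts of these libraries. Lepr-202 was at 7.38 CPM in Con+Veh replicate 3, and Lepr-204 was at 0.711 CPM in STZ-HFD replicate 4. The neighbour gene Dnajc6 was at 6.83 CPM in STZ-HFD replicate 1, the library with the fewest counts. The gene level of Lepr was not flagged in any group, and groups of 3 were not examined in this way.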

How the results depend on the processing

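The log2 fold change of Lepr in STZ-HFD ran from -1.27 to -0.999 over 11 other settings and from -1.28 to -0.97 over the 14 fits that left out 1 library, of which 3 lost the call. Its call was lost with edgeR's quasi-likelihood test (-1.11), voom without library weights (-1.11), no filter on low counts (-1.07, limma BH-adjusted p = 0.0636) and gene totals from transcript counts (-0.999, limma BH-adjusted p = 0.0796). In db/db Lepr was called under no setting. The number of leptin pathway genes called in db/db was 0 with edgeR, DESeq2 and voom without library weights, and 0 to 1 without single libraries, which was also the range in STZ-HFD. DESeq2 called 1 Lepr transcript in STZ-HFD, Lepr-203, where limma called 0. The estimated long isoform share differed by 13.1 to 26.8 percentage points between db/db and db/+ without single libraries. Between STZ-HFD and Con+Veh it differed by -0.57 to 1.39 points, where the sign turned without STZ-HFD replicate 2.

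Values near 0 changed sign. Stat3 in STZ-HFD was at 0.025 with edgeR, 0.041 with DESeq2, 0.021 with RLE size factors, 0.007 without ribosomal RNA genes, 0.025 with filterByExpr, 0.155 without a filter, 0.024 with the model fitted alone and 0.079 with gene totals from transcripts, and ran from -0.10 to 0.11 without single libraries. With gene totals from transcripts Ak4 was at 0.038 in STZ-HFD and Dnajc6 at -0.42 in db/db. Without single libraries the ranges that crossed 0 were those of Jak2 (-0.10 to 0.24 in db/db, -0.086 to 0.33 in STZ-HFD), Leprot in db/db (-0.30 to 0.21), Lepr-201 in STZ-HFD (-0.70 to 0.52), Lepr-202 (-2.17 to 1.32 in db/db, -0.70 to 2.63 in STZ-HFD) and Lepr-207 (-1.89 to 0.52 in db/db, -0.51 to 1.05 in STZ-HFD). Lepr-201 in STZ-HFD was at -0.081 with a transcript filter of 1 CPM.

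Same-numbered libraries did not deviate together (mean r of -0.13 in the STZ-HFD cohort and -0.08 in the db cohort). With only 4 and 3 such pairs, this cannot show whether the numbers pair the mice. With the replicate block Lepr was at -1.11 in STZ-HFD (adjusted p = 0.0354) and -0.44 in db/db (limma BH-adjusted p = 0.294), Lepr-201 in STZ-HFD was at -0.078, and the block changed 0 calls of Lepr, its transcripts or the lists. The isoforms are limited by depth, with 41 to 251 estimated Lepr counts per library. The causes of the changed calls were not tested.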
